A study of Rattus norvegicus with 6 samples.

Results

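Collagen chain genes encode the polypeptides that trimerise into collagens, the main structural proteins of the extracellular matrix. They were taken here as every gene whose symbol consists of Col, a type number, the letter a and a chain number, which gave 38 of the 17093 genes measured. RNA sequencing was done on primary cells of the rat nucleus pulposus, the soft centre of the disc between vertebrae; the animals were male, of unstated age, and cells were at passages 3 to 6. In the serum-starved group, 3 libraries came from cells kept for 48 h without fetal bovine serum. The 3 control libraries came from cells labelled as untreated, also at 48 h. The growth medium given for all cultures was DMEM-F12 with 10% serum, penicillin and streptomycin. The protocol text is the same for all 6 libraries, so the groups rest on the sample names and treatment labels. No genetic change is named. Whether libraries of one group derive from different animals, or from different dishes, is not labelled, and p-values therefore cover the variation among these libraries alone, which may be technical.

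Fibrillar collagens form the banded fibrils that carry tension, and FACITs (fibril-associated collagens with interrupted triple helices) sit on the surface of those fibrils. Network collagens form sheets, type IV in basement membranes and types VIII and X in hexagonal lattices, while type VI builds beaded filaments around cells. In the disc, the nucleus pulposus is known for a matrix of type II collagen and aggrecan, and the surrounding annulus fibrosus for type I collagen.

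Of the 38 genes, 16 were below 1 in all 6 libraries. Values are deposited ones, read as FPKM (fragments per length and per library total), so levels of different genes can be set side by side. The genes of type II and type IX collagen and of hypertrophic cartilage were among those 16: Col2a1 was between 0.00 and 0.06, Col9a1, Col9a2 and Col9a3 did not exceed 0.13, and Col10a1 did not exceed 0.05. Also below 1 throughout were Col11a2 (the partner chain of Col11a1), Col24a1, Col20a1, the kidney-type basement membrane chains Col4a3 and Col4a4, Col4a6, Col6a6, the anchoring-fibril gene Col7a1, Col17a1, Col23a1 and Col28a1. By class, 3 of 11 fibrillar, 4 of 8 FACIT, 4 of 9 network, 1 of 4 beaded-filament and 4 of 6 other collagens were in this state. A value listed at 0 can be a failed estimate, and the depth in reads is unknown. Another gene, Col15a1, reached 1 in 2 libraries only. The other 21 genes reached 1 in 3 or more libraries and were tested, of which Col19a1 reached that level in serum-starved libraries alone.

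The libraries summed to between 447788 and 473452 in the serum-starved and between 522165 and 530095 in the control group. Counts of markers that rose or fell stand beside 31.7% and 29.4% of all 11493 tested genes. Of 15 nucleus pulposus and notochord symbols listed, 10 were matched, while T, Tbxt, Shh, Noto and Krt19 were not. The matched markers were mixed: of the 10, 8 were tested, of which 3 rose, 4 fell and 1 did not pass. Among the 4 is Car12, which passed the filter only through its control values. The sum of the 10 lay between 314 and 354 in controls and between 266 and 286 without serum. This lower sum came from Slc2a1, which fell from 142 ± 5.08 to 30.7 ± 3.1 (SD, n = 3 each). Car3 rose from 1.03 ± 0.219 to 26.1 ± 0.852 (SD, n = 3 each). Krt18 was listed at 0 in every library and Krt8 fell from 2.58 ± 1.07 to 1.28 ± 0.208 (SD, n = 3 each), while Basp1 averaged 121 and 144 in control and serum-starved cells. The disc transcription factor Pax1 rose from 27.5 to 51.2 and Foxf1 fell from 33.3 to 21.8. Of 8 chondrocyte markers 5 were below 1 throughout, and of the others the aggrecan gene Acan fell from 77.5 ± 28.1 to 3.05 ± 0.333, Sox9 fell and the link protein gene Hapln1 rose from 15.7 ± 4.13 to 26.4 ± 5.58 (SD, n = 3 each). Summed annulus fibrosus and tendon markers (2 of 4 rose, 1 fell) went from between 56.9 and 70.4 to between 113 and 121, with Fmod 6.03-fold higher. Summed hypertrophic chondrocyte and osteoblast markers (3 tested of 7, all of which fell) went from between 3174 and 3931 to between 969 and 1592, mostly through Spp1. Of the 3 tested, Ibsp passed the filter only through its control values. Summed pericyte and smooth muscle markers went from between 272 and 306 to between 142 and 163.5: of 7 markers 3 fell, led by Des and Cspg4, and 2 rose, Pdgfrb and Myh11, and Rgs5 did not exceed 0.15 in any library. Of 6 fibroblast markers 5 were tested, of which 2 rose, 2 fell and 1 did not pass. Pdgfra rose from 62.4 ± 10.6 to 131 ± 10.5 and Thy1 fell from 921 ± 56.8 to 297 ± 33.7 (SD, n = 3 each). Summed fibroblast markers, mostly Vim and S100a4, went from between 9039 and 10358 to between 6144 and 7686. Endothelial markers (4 of 7 matched) summed to at most 1.19 and epithelial markers (2 of 4 matched) to at most 0.06. Schwann cell markers (3 of 4 matched) summed to at most 1.46 and skeletal muscle markers (2 of 4 matched) to at most 1.63. Macrophage and blood markers (5 of 7 matched) went from between 23.5 and 29.9 to between 10.7 and 14.3. Of these, Cd14 fell from 24.8 ± 2.85 to 8.54 ± 1.86 and Cd68 rose from 1.96 ± 0.467 to 3.38 ± 0.6 (SD, n = 3 each). The other 3 were below 1 throughout. The part of other cell types in the results was not tested. In such bulk samples, fewer cells of a type and less RNA per cell cannot be told apart.

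Serum-starved libraries had higher values of the FACIT genes Col12a1, Col14a1 and Col16a1, of the fibrillar genes Col11a1, Col3a1 and Col1a1 and of the network genes Col4a1, Col4a2 and Col8a1. They had lower values of the type VI genes Col6a1 and Col6a2 and of Col18a1. These values are relative to each library, and the amount of RNA per cell is not known. In all, 11 of 21 tested genes rose and 6 fell by limma with Benjamini-Hochberg adjustment at an adjusted p of at most 0.05, against 31.7% and 29.4% of all 11493 tested genes (61.1% in either direction). Col19a1 is among the 11 and was tested only through its serum-starved values; with a filter at 5, which leaves it out, 10 of 20 rose and 6 fell. The median log2 fold change of the 21 tested collagen genes, Col19a1 included, was 0.54 (starved minus control, on log2(value + 1)), beside 0.03 over all tested genes. At a change of at least 2-fold on that scale, 3 collagen genes rose and 1 fell, where 4.17% and 7.18% of all tested genes did. The groups did not overlap in 11 genes that were higher, Col19a1 included, and 5 that were lower (35.7% and 32.5% of all tested genes). The split depended on the scaling: with every library brought to a common sum, which moved the median of all tested genes from 0.03 to 0.20, 13 collagen genes rose and 3 fell, and after quantile normalization 11 rose and 3 fell. The 3 genes that no longer fell under either scaling were Col5a1, Col5a2 and Col6a3.

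**Figure D1:**
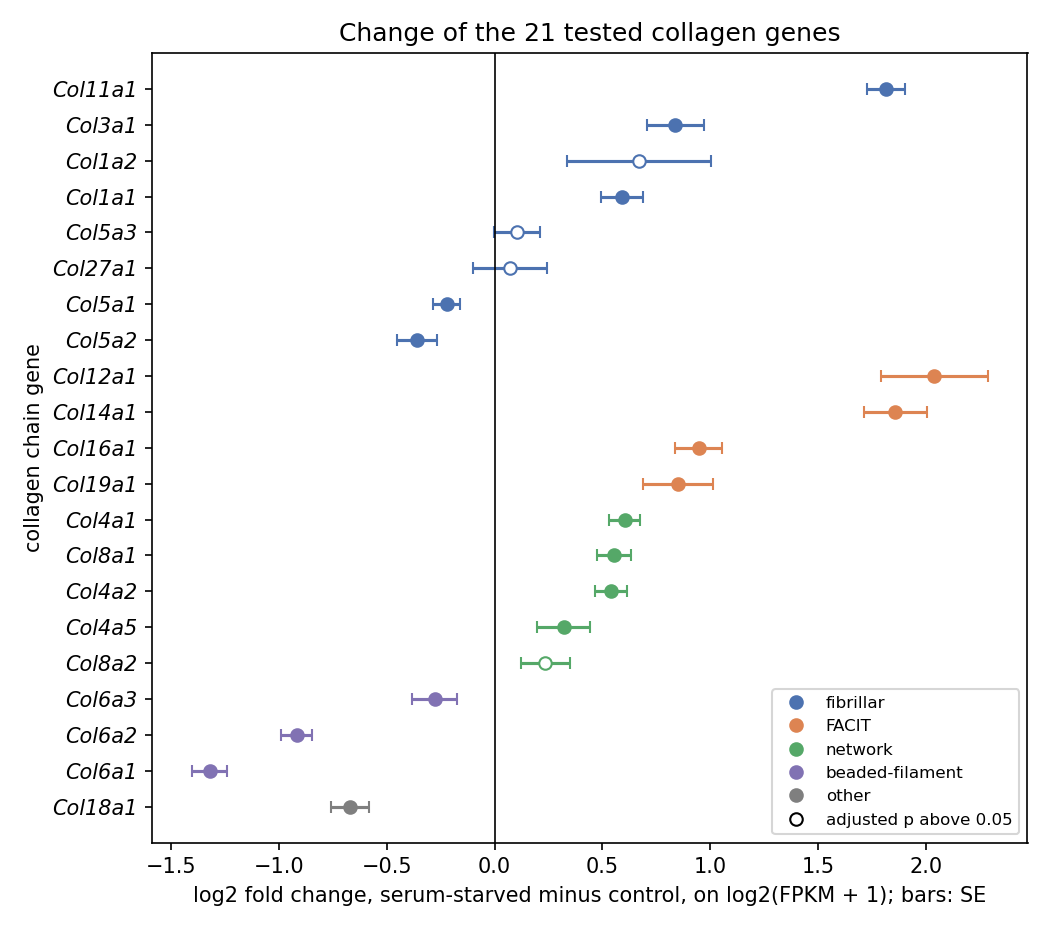
Log2 fold change (serum-starved minus control, on log2(FPKM + 1)) of the 21 tested collagen chain genes with standard errors, coloured by class; open circles did not pass the test. Col12a1, Col14a1 and Col16a1 lie to the right of 0, as does Col19a1, which passed the filter through its serum-starved values alone, and the 3 tested type VI genes lie to the left.

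Among the fibrillar collagens, 8 genes could be tested: 3 rose, 2 fell and 3 missed the threshold (median log2 fold change 0.35). This and the other class counts stand beside 31.7% of all tested genes that rose and 29.4% that fell. Col1a1 (gene ID 29393), the alpha1 chain of type I collagen, was the collagen gene with the highest value in every library. It stood at 1702, 2043 and 1652 in control replicates 1 to 3 and at 2651, 2756 and 2685 in serum-starved replicates 1 to 3. These groups did not overlap, and Col1a1 ranked between 17 and 28 among all genes in the controls and between 8 and 11 without serum. Its mean rose 1.5-fold, with a log2 fold change of 0.59 ± 0.097 (SE; limma, Benjamini-Hochberg adjusted p = 0.000963).

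Col1a2 (gene ID 84352) encodes the alpha2 chain, which joins 2 alpha1 chains in the type I trimer. Its values were 71.8, 122 and 112 in controls and 211, 88.9 and 213 in serum-starved cells. Serum-starved replicate 2 lay inside the control range, and the other two lay above it. The log2 fold change was 0.67 ± 0.335 (SE) and did not pass (limma, Benjamini-Hochberg adjusted p = 0.114), but without serum-starved replicate 2 it was 1.08 with an adjusted p of 0.00358, and with a common sum it was 0.86 with an adjusted p of 0.0415. The spread of Col1a2 within groups was wider than that of 99.6% of the 1654 tested genes with a mean value of at least 50.

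Col3a1 (gene ID 84032), the single chain of type III collagen, which mixes with type I in thin fibrils, was at 229.7, 300.3 and 217 in controls and 453, 389 and 489 in serum-starved cells. It rose 1.78-fold (log2 fold change 0.84 ± 0.133, SE; limma, Benjamini-Hochberg adjusted p = 0.000793), and its groups did not overlap. Col11a1 (gene ID 25654) encodes a chain of type XI collagen, a minor fibrillar type that nucleates fibrils and sets their width. Control libraries held it at 116, 129 and 103, and serum-starved libraries at 406, 425 and 393. This 3.53-fold rise (log2 fold change 1.81 ± 0.0887, SE; limma, Benjamini-Hochberg adjusted p = 1.22e-06) took Col11a1 from 2.08 ± 0.115% to 5.51 ± 0.205% (SD, n = 3 each) of the summed collagen values. Its partner Col11a2 stayed between 0.13 and 0.56, below the filter.

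Type V collagen copolymerises with type I and limits fibril diameter, and its main chains were lower without serum. Col5a2 (gene ID 85250) was at 645, 696 and 551 in controls and 478, 502 and 487 in serum-starved cells, and Col5a1 (gene ID 85490) was at 155, 164 and 148 against 134, 134 and 132. Neither gene's groups overlapped, although the differences were small. Col5a2 was 1.29-fold lower (log2 fold change -0.36 ± 0.0916, SE; limma, Benjamini-Hochberg adjusted p = 0.0089) and Col5a1 1.17-fold lower (-0.22 ± 0.0618, SE; adjusted p = 0.0137). The Col5a2 difference was -0.17 with a common sum (adjusted p = 0.121) and 0.01 after quantile normalization (adjusted p = 0.95). That of Col5a1 was -0.03 and -0.09 under these settings (adjusted p = 0.664 and 0.239), and it also missed the threshold without serum-starved replicate 3 (adjusted p = 0.053) or control replicate 2 (adjusted p = 0.0641). Col5a3 and Col27a1, at means between 6.84 and 8.84, did not pass (limma, Benjamini-Hochberg adjusted p = 0.42 and 0.732). For Col27a1, control replicate 3 held 9.36 against 5.17 and 6.00 in the other controls, and without it the log2 fold change was 0.29 with an adjusted p of 0.0274.

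Col3a1 and Col5a2 are direct neighbours on the RefSeq map of the rat genome (GRCr8), with 0 protein-coding genes between them, and they went in opposite directions here on the deposited scale. Col6a1 and Col6a2 are also neighbours, with 0 genes between, and both fell.

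Among FACIT genes, Col12a1, Col14a1 and Col16a1 rose, and Col19a1 entered the test only through the group in which it is higher. Col12a1 (gene ID 25683), whose type XII collagen links fibrils in dense connective tissue, was at 94.6, 136 and 173 in controls and at 398, 708 and 558 in serum-starved cells. Both groups were wide, but the lowest serum-starved value lay above the highest control. Col12a1 rose 4.13-fold (log2 fold change 2.04 ± 0.248, SE; limma, Benjamini-Hochberg adjusted p = 0.000183). Col14a1 (gene ID 314981) encodes type XIV collagen, which binds fibril surfaces and regulates fibril growth. Its values were 202, 228 and 293 in controls and 765, 1001 and 849 in serum-starved cells, a 3.62-fold rise without overlap (log2 fold change 1.86 ± 0.146, SE; limma, Benjamini-Hochberg adjusted p = 1.66e-05).

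Col16a1 (gene ID 366474) was at 36.1, 42.3 and 47.0 in controls and 77.8, 75.3 and 90.9 in serum-starved cells, and rose 1.95-fold. For Col19a1 (gene ID 367236) the values were 0.510, 0.910 and 0.630 against 1.44, 2.67 and 2.08. Its groups did not overlap, but its serum-starved values alone took it past the filter. Its test result is therefore not given by itself, although the counts of called genes include Col19a1. In control replicate 3, Col12a1, Col14a1 and Col16a1 were higher than in the other controls. In serum-starved replicate 2, Col12a1, Col14a1 and Col19a1 were higher than in the other serum-starved libraries, and Col1a2 and Col3a1 lower.

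Of 5 tested network genes, 4 rose, Col4a5 only narrowly, and 1 did not pass (median log2 fold change 0.54). Col4a1 (gene ID 290905) and Col4a2 (gene ID 306628) encode the 2 chains of the common basement membrane trimer. Col4a1 was at 54.3, 60.6 and 61.2 in controls and 89.4, 93.9 and 85.7 in serum-starved cells, and Col4a2 at 65.7, 74.7 and 75.8 against 104, 110.2 and 101. Every serum-starved library exceeded every control for both genes. They rose 1.53-fold and 1.46-fold (log2 fold changes 0.60 ± 0.0704 and 0.54 ± 0.0741, SE; limma, Benjamini-Hochberg adjusted p = 0.000146 and 0.000363).

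These genes are direct neighbours read in opposite directions. In the RefSeq promoter table (GRCr8) their starts are 77 bases apart, and the 76 bases in between are shown because they are upstream of both genes. The stretch is chr16:84885521-84885596, on the plus strand (the Col4a1 strand), and capitals mark a GC box (GGGCGG or its reverse complement). It is 78.9% G or C.

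Col4a1/Col4a2: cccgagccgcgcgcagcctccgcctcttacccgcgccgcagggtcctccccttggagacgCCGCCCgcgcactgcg

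The other type IV pairs of the table are Col4a3 with Col4a4, whose starts are 413 bases apart, and Col4a5 with Col4a6, 1415 bases apart, each on opposite strands. Col4a3 and Col4a4 averaged 0.403 and 0.583 in controls and 0.170 and 0.240 without serum. Col4a5 (gene ID 363457) was at 7.56, 9.47 and 6.66 in controls and 9.90, 10.9 and 9.27 in serum-starved cells, which overlap. Its rise of 0.32 ± 0.121 (log2, SE) passed narrowly (limma, Benjamini-Hochberg adjusted p = 0.0474) and missed the threshold under 10 of 15 alternatives, with adjusted p up to 0.25. Leaving out any one library except control replicate 2 ended this call.

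Type VIII collagen forms hexagonal lattices under vascular and corneal cells. Col8a1 (gene ID 304021) was at 286, 262 and 294 in controls and 395, 451 and 393 in serum-starved cells, and rose 1.47-fold without overlap (log2 fold change 0.55 ± 0.0805, SE; limma, Benjamini-Hochberg adjusted p = 0.000493). Its partner Col8a2 (gene ID 313592) was at 101, 139 and 131 against 151, 142 and 140.3. The groups of Col8a2 did not overlap, but the difference did not pass (log2 fold change 0.24 ± 0.114, SE; limma, Benjamini-Hochberg adjusted p = 0.103). Without control replicate 2 its adjusted p was 0.0419, with a common sum 0.00746 and after quantile normalization 0.0208.

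Type VI genes fell in all 3 cases tested, Col6a3 only narrowly (median log2 fold change -0.92). Type VI collagen is a trimer of 1 chain from each of these genes and marks the matrix next to disc and cartilage cells. Col6a1 (gene ID 294337) was at 706, 702 and 593 in controls and at 267, 262 and 268 in serum-starved cells. Its groups were far apart, with the serum-starved values close together. Col6a1 was 2.51-fold lower (log2 fold change -1.32 ± 0.0816, SE; limma, Benjamini-Hochberg adjusted p = 4.14e-06). Col6a2 (gene ID 361821), at 712, 706 and 635 against 372, 348 and 364, was 1.89-fold lower (-0.92 ± 0.0715, SE; adjusted p = 1.58e-05).

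Col6a3 (gene ID 367313), the largest of these chains, was at 159, 170.1 and 137 in controls and 131, 113 and 140.4 in serum-starved cells. Those values overlap, and the fall was small (log2 fold change -0.28 ± 0.105, SE; limma, Benjamini-Hochberg adjusted p = 0.0474). It missed the threshold under 9 of 15 alternatives, with adjusted p up to 0.45 with a common sum, and when either replicate 1 or either replicate 2 was left out (adjusted p between 0.0738 and 0.153). With the replicate block the adjusted p was 0.0868.

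Of the remaining 6 collagens only Col18a1 (gene ID 85251) was tested. It encodes the basement membrane multiplexin whose C-terminal fragment is endostatin. Values of 21.7, 25.4 and 22.1 in controls compared with 15.4, 13.1 and 13.9 in serum-starved cells, without overlap. Col18a1 was 1.64-fold lower (log2 fold change -0.67 ± 0.0885, SE; limma, Benjamini-Hochberg adjusted p = 0.000288). The other multiplexin gene, Col15a1 (gene ID 298069), was at 1.79, 0.990 and 1.51 in controls and 0.450, 0.630 and 0.420 in serum-starved cells, 2.86-fold lower and without overlap. Col17a1 (gene ID 294027), a transmembrane collagen of hemidesmosomes, was at 0.310, 0.330 and 0.270 against 0.03, 0.07 and 0.05. Both genes lay below the filter. In a fit without a filter, 4 of the 17 genes outside the main test passed: Col15a1 and Col17a1 fell (limma, Benjamini-Hochberg adjusted p = 0.00594 and 0.000407) and Col11a2 and Col24a1 rose (adjusted p = 0.00898 and 0.0445), while 13 did not pass. Of all 16684 genes in that fit, 3996 rose and 3585 fell. At such levels the depth behind a value is unknown.

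The collagen values of a library summed to 5563 ± 407 in controls and 7403 ± 260 in serum-starved cells (SD, n = 3 each), or 1.06 ± 0.0683% and 1.61 ± 0.102% of the library sum. An exact two-sided permutation test of 3 against 3 cannot give a p below 0.1, and it gave p = 0.1 for this sum, as it did for the sum of each class. FACIT genes made up 6.21%, 6.77% and 9.76% of the collagen sum in control replicates 1 to 3 and 17.4%, 23.4% and 20.2% in the serum-starved ones. Type VI genes went from 29.3%, 26.2% and 25.9% to 10.8%, 9.46% and 10.4%. Shares of both classes were thus apart in every library. Fibrillar genes held between 53.1% and 57.5% in controls and between 56.4% and 61.0% without serum, and network genes 9.82 ± 0.893% and 10.3 ± 0.421% (SD, n = 3 each), and in both classes the groups overlapped.

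**Figure D2:**
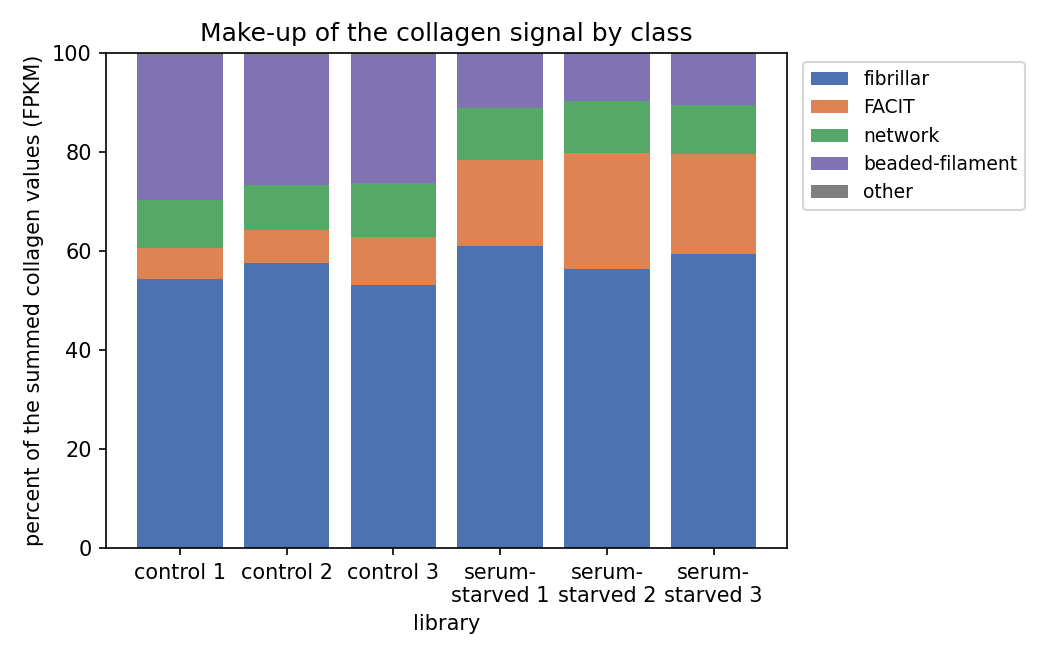
Percent of the summed collagen values (FPKM) held by each collagen class in each library. Bars run from 0 to 100; the FACIT part is 6.21 to 9.76% in controls and 17.4 to 23.4% in serum-starved libraries, and the beaded-filament part 25.9 to 29.3% and 9.46 to 10.8%.

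Chains of one collagen type did not always keep the same ratio. Col6a1 over Col6a2 was 0.993, 0.995 and 0.933 in controls and 0.716, 0.751 and 0.737 in serum-starved cells. Col6a3 over Col6a1 went from 0.226, 0.242 and 0.231 to 0.491, 0.431 and 0.524. Both ratios were apart in every library, with an exact two-sided permutation p = 0.1, the smallest possible. The type VI chains thus differed by unequal amounts between the groups.

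By contrast, Col4a1 over Col4a2 was 0.815 ± 0.01 in controls and 0.854 ± 0.00819 in serum-starved cells (SD, n = 3 each), a difference of 0.07 on the log2 scale that was still apart in every library (exact two-sided permutation p = 0.1). Col1a1 over Col1a2 ranged from 14.7 to 23.7 in controls and was 12.6, 31.0 and 12.6 in serum-starved cells (exact permutation p = 0.8). The deposited values of Col1a2 were thus far below those of Col1a1 in all 6 libraries. How fragments were assigned to Col1a2 was not tested, so this ratio describes the deposited values and may not be that of the transcripts. Col5a1 over Col5a2 averaged 0.248 and 0.273 (exact permutation p = 0.2) and Col8a1 over Col8a2 2.32 and 2.86 (exact permutation p = 0.3) in control and serum-starved cells. Col4a5 over Col4a6 averaged 42.9 and 41.5 (exact permutation p = 0.8), where Col4a6 was below 1 throughout.

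**Figure D3:**
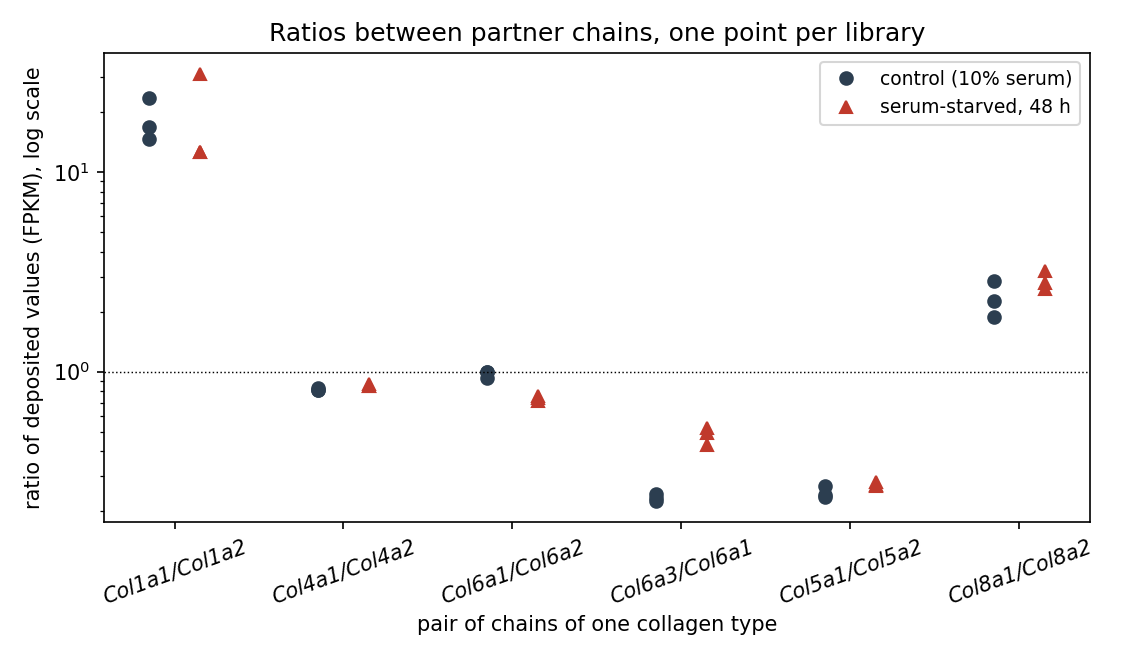
Ratio of deposited values (FPKM, log axis) between 2 chains of one collagen type, with 1 point per library; the dotted line marks equal values. The ratios Col6a1/Col6a2 and Col6a3/Col6a1 separate the groups, while Col1a1/Col1a2 lies between 12.6 and 31.0 with groups that overlap.

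The promoters of the fibrillar gene with the strongest rise, Col11a1, and of the tested collagen gene with the strongest fall, Col6a1, are shown to set their letters side by side. Both are the 250 bases before the RefSeq start (GRCr8), on the plus strand: chr2:204508886-204509135 for Col11a1 and chr20:11905440-11905689 for Col6a1. Capitals mark CCAAT (the NF-Y motif), the GC box GGGCGG and the TATA box TATAAA, each searched on both strands.

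Col11a1: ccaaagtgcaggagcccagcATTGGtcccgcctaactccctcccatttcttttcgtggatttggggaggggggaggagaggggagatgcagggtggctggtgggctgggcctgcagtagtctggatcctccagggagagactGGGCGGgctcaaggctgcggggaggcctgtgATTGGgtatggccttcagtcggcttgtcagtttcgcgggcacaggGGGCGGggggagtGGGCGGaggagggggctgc

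Col6a1: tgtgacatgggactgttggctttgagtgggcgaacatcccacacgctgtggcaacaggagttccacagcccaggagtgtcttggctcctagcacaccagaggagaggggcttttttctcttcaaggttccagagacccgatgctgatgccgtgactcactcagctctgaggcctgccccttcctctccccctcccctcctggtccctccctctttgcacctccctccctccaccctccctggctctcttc

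In these windows Col11a1 had 2 CCAAT and 3 GC box matches and Col6a1 had 0 of either, and their G or C shares were 65.6% and 60%. The promoter table held 31 of the 38 genes. Of these 31, 9 held a CCAAT, 19 a GC box and 3 a TATA box, and over all 27457 promoters of the same length the shares were 34.3%, 32.4% and 13.1%. Among the members that rose, 3 of 7 with a promoter held a CCAAT and 6 of 7 a GC box, and among those that fell 0 of 5 and 2 of 5. The 7 include Col19a1, which had 0 of either. No promoter was listed for Col1a1, Col3a1, Col12a1 and Col14a1, which rose, or for Col6a2, which fell. The windows of Col4a1 and Col4a2 overlap and share a GC box. Of the 5 that fell, Col5a1, Col5a2 and Col6a3 lost that call with a common sum and after quantile normalization. A match is a run of letters, and no factor binding was measured.

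Other genes of collagen production were read from lists, and each count stands beside the 31.7% of all tested genes that rose and the 29.4% that fell. Of 21 tested genes for modification, folding and secretion of procollagen, 3 rose, 6 fell and 12 did not pass (median log2 fold change -0.05, beside 0.03 over all tested genes). All 3 catalytic subunits of prolyl 4-hydroxylase, which stabilises the triple helix, fell: P4ha1 from 382 ± 18.6 to 131 ± 8.47, P4ha2 from 68.6 ± 4.44 to 34.8 ± 3.06 and P4ha3 from 189 ± 9.67 to 139 ± 13.2 (SD, n = 3 each). P3h3, of the prolyl 3-hydroxylase family, rose 1.32-fold, and Mia2, a procollagen export factor listed under the symbol LOC100912115, rose 1.48-fold. The collagen chaperone gene Serpinh1, named after its values were seen, had a mean of 726 ± 76.2 in control and 653 ± 2.11 in serum-starved cells and did not pass (limma, Benjamini-Hochberg adjusted p = 0.158).

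Of 10 tested genes for procollagen trimming and cross-linking, 5 rose and 5 fell (median 0.23). Among the 5 that fell, Adamts14 passed the filter only through its control values. The procollagen N-proteinase gene Adamts2 rose 3.63-fold to 11.7 ± 0.2, Tll1, of the C-proteinase family, 2.90-fold to 38.4 ± 4.02, and Lox, the lysyl oxidase that starts cross-links, 2.12-fold to 1303 ± 61.7. Its relatives Loxl3, Loxl4 and Loxl1 fell 2.93-fold, 1.94-fold and 1.52-fold. Among 6 tested collagen receptor and uptake genes 5 rose and 1 fell (median 0.53). The integrin chain genes Itga1 and Itga11 rose 2.77-fold and 2.10-fold and the receptor tyrosine kinase Ddr1 1.54-fold, while the common beta chain Itgb1 fell 1.20-fold. Of 10 tested collagen-cleaving proteases and inhibitors 5 rose, 2 fell and 3 did not pass (median 0.44). Mmp2, a gelatinase, rose 5.71-fold, the inhibitor Timp2 2.21-fold and cathepsin K (Ctsk) 1.47-fold, and Mmp16 and Timp1 fell 1.41-fold and 1.23-fold. The collagenase gene Mmp13, named after its values were seen, averaged 84.5 ± 22.8 in control and 143 ± 56.9 in serum-starved cells (SD, n = 3 each) and did not pass (limma, Benjamini-Hochberg adjusted p = 0.0618).

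Among 25 tested regulators of collagen transcription 9 rose, 7 fell and 9 did not pass (median -0.09). Mkx, a factor of tendon and annulus cells, rose 2.96-fold to 10.6 ± 0.467, Tgfbr2, a TGF-beta receptor, 1.90-fold and Creb3l1, which activates type I collagen genes in bone, 1.64-fold. Sox9, the activator of cartilage collagen genes, fell 4.03-fold to 1.27 ± 0.0723, Smad7, an inhibitor of TGF-beta signalling, 3.51-fold, and Klf4 3.85-fold. These named list genes had limma Benjamini-Hochberg adjusted p between 9.55e-07 (P4ha1) and 0.039 (Timp1), apart from Serpinh1 and Mmp13.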

How the data were processed

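Each library has its own deposited table, all listing 17093 genes with 2-decimal values. The headers name no unit. The deposited values are treated as FPKM because they are not whole and their sums differ by library. The tools named, per the submitters' processing notes, are HISAT2, StringTie, limma, DESeq2 and bcl2fastq 2.0. The build named there is mm10, of mouse, although the gene IDs are rat. Files' coordinates are therefore not given, and RefSeq (GRCr8) served for names, neighbours and promoters; all 38 members matched by gene ID. The use of strand and of multiply mapped fragments: not given in the sources used here. Without counts, the depth behind a value is unknown and intervals for counting error are not shown.

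The 11493 genes that reached 1 in 3 or more of the 6 libraries (total RNA depleted of ribosomal RNA, random primers) were compared on log2(value + 1), which understates changes of low genes, with limma 3.58.1 in R 4.3.3 (intensity trend, treatment as the only term, 4 residual degrees of freedom) and Benjamini-Hochberg adjustment over all tested genes. Folds are ratios of mean deposited values. The fit was tested on simulated data. Sums and ratios were computed per library in Python 3.11.15 with pandas 2.3.3, and figures drawn with matplotlib 3.10.9. Promoter searches used the first listed window of each gene. From each list, up to 3 changed genes per direction with non-overlapping groups and a mean of at least 5 were named. Members and lists were chosen with earlier results of these data known.

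Alternatives were a pseudocount of 0.1, a filter at 5 or none, 3 other scalings, no trend, library weights, the replicate number as a block, and each library left out with the tested genes kept.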

Additional observations from a re-analysis of the deposited data

How the results depend on the processing

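Of 17 collagen genes that passed, 13 kept their call under each of the 15 alternatives that tested them; the exceptions were Col5a1, Col5a2, Col4a5 and Col6a3. Both the 17 and the 13 include Col19a1, which passed the filter only through its serum-starved values. The number of collagen genes that fell, 6, was 3 with a common sum of values and 3 after quantile normalization, and Col5a2 had a log2 fold change of 0.00685 after quantile normalization; the cause was not tested. Over the other settings and the left-out libraries, 10 to 12 collagen genes rose and 4 to 7 fell; with a common sum 13 rose. With a common sum, the log2 ratio of mean sums was 0.61 instead of 0.41 for all collagens, 0.70 instead of 0.51 for fibrillar, 0.68 instead of 0.49 for network, -0.80 instead of -1.0 for beaded-filament and -0.54 instead of -0.73 for other collagens, a shift that the scaling sets for every gene. Of all tested genes, 5303 rose and 2327 fell with a common sum, against 3640 and 3384. The replicate numbers do not pair the libraries by the labels, and same-numbered libraries had correlations of their deviations from group means of 0.04, -0.16 and 0.10. With the replicate block 11 collagen genes rose and 5 fell. The log2 difference of the Col1a1/Col1a2 ratio, -0.08, ran from -0.52 to 0.13 when single libraries were left out, and that of Col4a5/Col4a6, -0.04, from -0.21 to 0.17. Without a filter, 4 of 17 genes below it passed and Col4a5 and Col6a3 did not, where 3996 of all 16684 genes rose and 3585 fell. Depth is unknown, which limits what low values show.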
